A study of Mus musculus with 6 samples.

Results

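Cyclic nucleotide signalling genes were compared between muscle and epithelium sorted from the trachea of mouse embryos. The genes were taken by symbol from the deposited count table: adenylyl cyclases, guanylyl cyclases, natriuretic peptide receptors, phosphodiesterases, subunits of the kinases PKA and PKG, and A-kinase anchoring proteins. 70 of the 23478 genes in the table matched, and 69 passed the filter on low counts. RNA had been sequenced from 6 libraries of cells sorted on embryonic day 13.5, with 3 muscle and 3 epithelial libraries. All 6 shared 15 minutes of TrypLE treatment. The protocols name the eGFP reporter and a stain for surface Epcam but not the gates, and the libraries were made with a low-input SMART-Seq kit. Every embryo carried Bmp4 f/f together with gamma SMA eGFP, a reporter, and all libraries are given as controls. No Cre is named, and the labels do not say how many embryos went into a library or whether replicates came from separate embryos, so p-values measure the spread between these samples. SMA stands for smooth muscle actin, which vascular smooth muscle can also make. In sorted bulk samples fewer cells of a type cannot be told apart from less RNA per cell.

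Cyclic AMP is made from ATP by adenylyl cyclases, most of which are membrane enzymes driven by G protein-coupled receptors, and it acts largely by releasing the catalytic subunits of PKA from their regulatory subunits. Cyclic GMP is made by a soluble guanylyl cyclase that binds nitric oxide and by membrane receptors of natriuretic peptides, and in smooth muscle it acts through the kinase PKG to lower calcium and relax the cell. Phosphodiesterases break both nucleotides down, and A-kinase anchoring proteins hold PKA at particular places in the cell. In the airway both nucleotides relax smooth muscle, and in epithelium cyclic AMP drives chloride and fluid secretion.

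Total counts ran from 11847432 to 54848820 per library. Of the markers of the sorted populations, all 7 of smooth muscle were higher in muscle and all 7 of epithelium in epithelium. Smooth muscle markers summed to 15498, 3809 and 16469 CPM (counts scaled to a common library total) in muscle replicates 1 to 3, so replicate 2 held the least, and to 29.1 to 82.8 CPM in epithelium. Of 6 pericyte markers, 3 were higher in muscle (sums of 1172 to 1393 CPM against 134 to 243), and Notch3, which did not pass, was above 100 CPM in all 6 libraries. Of 5 cartilage markers, Col9a1 (9.36-fold, adjusted p = 0.01133, edgeR) and Sox9 (4.02-fold, adjusted p = 0.02617) were higher in muscle, with sums over the 5 of 652 to 1129 CPM against 219 to 462. The part of pericyte or cartilage cells in the differences given below was not tested. None of 6 endothelial markers passed (sums of 39.2 to 58.0 CPM in muscle and 1.17 to 49.5 in epithelium). Cdh5 and Tie1 were at 0 in epithelium replicate 1, and at 0.08 and 0 CPM in muscle replicate 1. Tek was the largest part of the muscle sums, with 34.6, 26.6 and 32.9 CPM against 0.72, 15.3 and 4.77 in epithelium. Its groups did not overlap, while those of the other endothelial markers did, and only Emcn had a lower mean in muscle (0.48 against 0.96 CPM). None of 6 skeletal muscle markers passed either, although muscle replicate 1 had 327 CPM of them and the other muscle libraries 15.1 and 35.4. Muscle replicate 2 and epithelium replicates 2 and 3 stood apart: 73.3%, 74.8% and 78.8% of 1456 olfactory and vomeronasal receptor genes had counts there, against 3.02% to 17.5% in the other 3. These receptors belong to sensory neurons, and their level serves below as the floor under which a gene was not separable from background counts.

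Of the 69 tested genes, edgeR's quasi-likelihood test put 12 toward muscle and 3 toward epithelium at a threshold of 0.05 on the adjusted p. That is 21.7% of the members, against 10.7% of all 19375 genes tested, with 6.58% toward muscle and 4.11% toward epithelium. A further 9 members had an unadjusted p under 0.05 only, which makes 24 in all at that level. The median log2 fold change, muscle over epithelium, was 0.12 over the members and -0.10 over all tested genes. The groups did not overlap in 24 members, 19 higher in muscle and 5 in epithelium. Over all tested genes 26.9% did not overlap, 16.4% higher in muscle and 10.5% in epithelium. When libraries were scaled by library size only, the median of all tested genes moved to -0.33 and the split of members was 9 higher in muscle and 4 in epithelium. The identifiers in the file header, read here as dates, put 2 libraries per group on a later date, and within it 19 of 59 tested members passed toward muscle and 2 toward epithelium, against 17.6% of all genes. The earlier date held replicate 2 of each group, which allows no test, so the later date is the same as leaving out both. These are 2 of the 3 libraries rich in receptor counts, and include the muscle library lowest in smooth muscle markers. Without epithelium replicate 3 the count toward muscle fell to 6, and without muscle replicate 1 or 3 the count toward epithelium fell to 1.

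**Figure D1:**
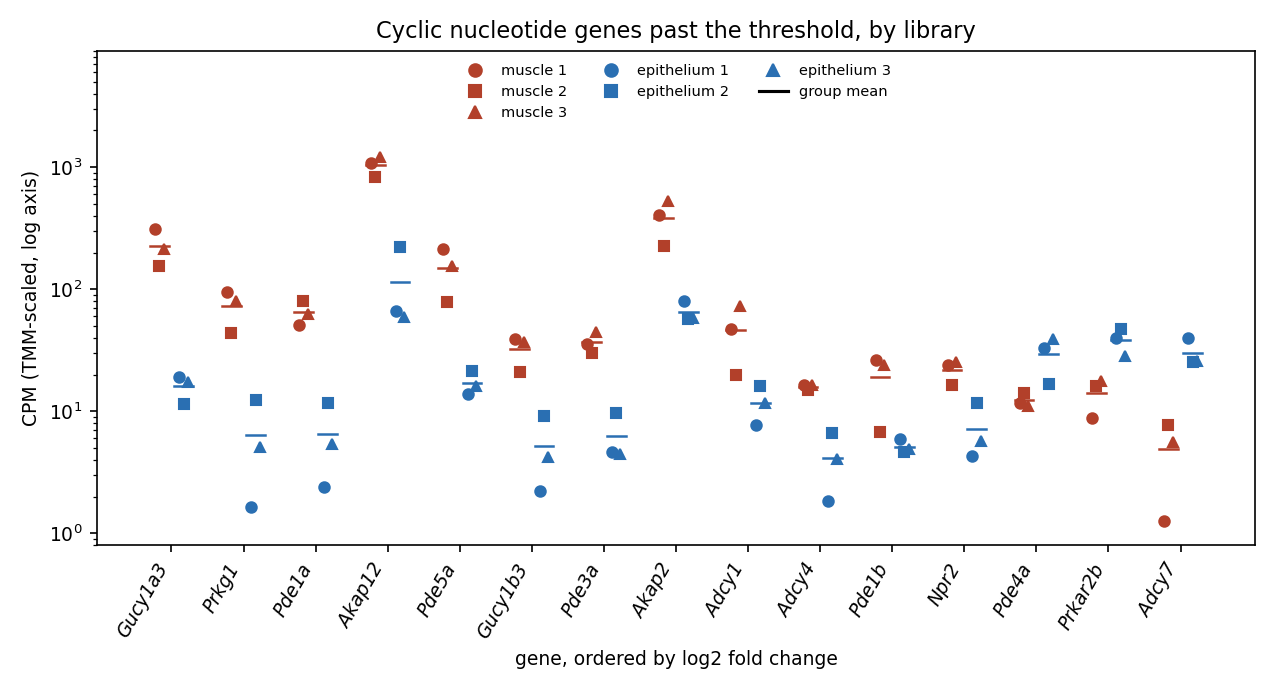
CPM on a log axis of the 15 cyclic nucleotide genes past the threshold, with 1 symbol per library and a line at each group mean (3 libraries per group). Muscle libraries lie above epithelial libraries for the 12 genes from Gucy1a3 to Npr2, and below them for Pde4a, Prkar2b and Adcy7.

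Some genes of cyclic GMP synthesis and response passed toward muscle and others did not pass. Both subunits of the soluble guanylyl cyclase, the kinase PKG1 and the cyclic GMP phosphodiesterase PDE5 were higher in muscle, by 14.1-fold for Gucy1a3, 6.34-fold for Gucy1b3, 11.7-fold for Prkg1 and 8.74-fold for Pde5a. Gucy1a2, Gucy1b2, Npr1, Npr3, Prkg2, Pde9a and the 5 Gucy2 genes did not pass. Gucy1a3 and Gucy1b3, now named Gucy1a1 and Gucy1b1, encode the alpha and beta chains that join into the nitric oxide receptor. They lie on chromosome 3 of GRCm38 on the minus strand, Gucy1b3 at 82032006 to 82074689 and Gucy1a3 at 82092427 to 82145789, with 17737 bases between them.

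Both chains and Prkg1 were higher in the same tissue, and the stretches before their annotated starts were examined for letters bound by factors of this pathway and of smooth muscle. The motifs searched, on both strands, were the CArG box of serum response factor, the cyclic AMP response element TGACGTCA, and its TGACG core, which the longer element contains. RefSeq (GRCm38.p6) start windows of 250 bases before to 50 after a start were found for 58 of the 70 members, 107 windows in all. The 250 bases before the start of Gucy1b1 and before both starts of Prkg1, and for contrast those before a start of the epithelial gene Adcy7, are given below 5′ to 3′ on the gene's strand, with any TGACG core (CGTCA when on the other strand) in capitals.
Gucy1b1, chr3:82074712-82074961, minus strand: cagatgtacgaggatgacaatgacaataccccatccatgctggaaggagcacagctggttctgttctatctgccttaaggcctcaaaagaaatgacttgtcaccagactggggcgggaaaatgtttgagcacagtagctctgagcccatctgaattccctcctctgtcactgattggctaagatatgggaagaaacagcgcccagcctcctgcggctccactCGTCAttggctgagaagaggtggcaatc
Prkg1, chr19:31765034-31765283, minus strand: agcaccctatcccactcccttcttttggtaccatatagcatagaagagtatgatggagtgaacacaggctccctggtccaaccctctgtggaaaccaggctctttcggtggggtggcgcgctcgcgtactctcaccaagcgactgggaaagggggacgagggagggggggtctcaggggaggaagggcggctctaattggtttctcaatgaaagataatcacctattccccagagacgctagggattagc
Prkg1, chr19:31664371-31664620, minus strand: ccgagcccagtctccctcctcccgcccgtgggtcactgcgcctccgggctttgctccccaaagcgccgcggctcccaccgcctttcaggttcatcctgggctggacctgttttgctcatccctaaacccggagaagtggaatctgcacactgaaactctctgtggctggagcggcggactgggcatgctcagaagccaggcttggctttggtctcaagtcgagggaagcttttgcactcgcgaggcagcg
Adcy7, chr8:88282742-88282991, plus strand: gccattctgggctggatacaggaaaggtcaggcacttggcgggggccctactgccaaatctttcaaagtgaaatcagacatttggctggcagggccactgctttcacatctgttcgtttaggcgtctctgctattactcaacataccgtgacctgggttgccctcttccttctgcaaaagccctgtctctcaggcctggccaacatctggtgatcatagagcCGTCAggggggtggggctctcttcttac

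The core lay 28 bases before the start of Gucy1b1, which is higher in muscle, and 28 bases before the printed start of Adcy7, which is higher in epithelium. The windows of the other 2 starts of Adcy7, both windows of Gucy1a1 and both of Prkg1 held none of the 3 motifs. Over the members, 24 of 107 windows (22.4%) held TGACG, against 20.8% of all 32851 windows of that length. Among windows of genes past the threshold it was in 4 of 21 for those higher in muscle and in 2 of 8 for those higher in epithelium. No member window held a CArG box, which was in 1.63% of all windows. The full TGACGTCA was in 2 member windows (1.87%, against 1.79% of all windows), both of Prkar1a and both at the same site, 49 bases before one of its starts: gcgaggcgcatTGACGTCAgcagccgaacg, at chr11:109650889-109650918 on the plus strand, with the element in capitals. Such matches describe letters, not binding.

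Gucy1a3 had 313, 154 and 214 CPM in the muscle libraries and 19.3, 11.5 and 17.5 in the epithelial ones, in the order of the replicates, as in the sentences that follow. Every muscle library was far above every epithelial one. The means were 227 ± 80.5 (SD, n = 3) and 16.1 ± 4.07 CPM, and the fitted difference was 3.81 ± 0.36 on the log2 scale (SE, adjusted p = 0.0004683, edgeR). Gucy1b3 had 39.3, 21.0 and 37.1 CPM in muscle and 2.25, 9.09 and 4.24 in epithelium. The groups were again apart, and the fitted difference, 2.66 ± 0.52 on the log2 scale with an adjusted p of 0.01111 in edgeR, did not pass without epithelium replicate 3 (adjusted p = 0.05259). Per kilobase of exon, the alpha chain exceeded the beta chain 4.50-, 4.13- and 3.24-fold in the muscle libraries, while in epithelium the ratio ranged from 0.71 to 4.83. The alternative chains did not follow. Gucy1a2 had 7.34, 12.7 and 7.08 CPM in muscle and 8.42, 12.8 and 8.64 in epithelium (log2 fold change -0.14 ± 0.43, adjusted p = 0.943). Gucy1b2 was under 1 CPM in muscle replicates 1 and 3 and epithelium replicate 1 and had 2.70 to 9.36 CPM in the other 3 libraries, those with many background counts.

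Prkg1, which encodes the PKG found in smooth muscle, spans chr19:30564489-31765033. It had 94.3, 44.3 and 79.8 CPM in muscle and 1.65, 12.4 and 5.07 in epithelium. All muscle libraries were above all epithelial ones, with a fitted difference of 3.55 ± 0.67 on the log2 scale (adjusted p = 0.009781, edgeR). Without epithelium replicate 3 the adjusted p was 0.06202. The epithelial values of replicates 2 and 3, at 1.14 and 0.47 CPM per kilobase of exon, were under the level that 95% of receptor genes did not exceed in those libraries (1.55 and 0.64). In the 3 libraries with few background counts, Prkg1 counts were 2481 and 3158 in muscle and 89 in epithelium, and the fit to those libraries alone, chosen after the data were seen, gave a log2 fold change of 5.53 ± 0.41, more than 1.5 times the value from all 6. That fit assumes that the lone epithelial library varies like the muscle ones. Prkg2, the membrane-bound form of gut and bone, had 3.04, 12.8 and 3.56 CPM in muscle and 0.26, 6.75 and 5.82 in epithelium, with overlapping groups (log2 fold change 0.60 ± 1.08, adjusted p = 0.9067).

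Pde5a, at chr3:122728947-122859374, encodes the enzyme that hydrolyses cyclic GMP and is the target of sildenafil. It had 215, 79.3 and 154 CPM in muscle and 14.0, 21.3 and 16.1 in epithelium. Muscle replicate 2 was the lowest of its group yet above each epithelial library, and the fitted difference was 3.13 ± 0.39 on the log2 scale (adjusted p = 0.001479, edgeR). For Gucy1a3, Gucy1b3, Prkg1 and Pde5a alike, muscle replicate 2, the muscle library with the least of the smooth muscle markers, had the least. The part of the marker level in that spread was not tested.

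Natriuretic peptide receptors, the other entry to cyclic GMP, were of modest level. Npr2, the receptor of C-type natriuretic peptide, had 23.8, 16.6 and 25.6 CPM in muscle and 4.28, 11.8 and 5.67 in epithelium. Its groups did not overlap, and it was 3.06-fold higher in muscle (log2 fold change 1.61 ± 0.43, adjusted p = 0.04548, edgeR). That call was lost without muscle replicate 1 or 3 or epithelium replicate 1 or 3, at an adjusted p of up to 0.1933. Npr3, the clearance receptor, had 12.5, 24.5 and 10.7 CPM in muscle and 2.53, 10.9 and 6.01 in epithelium, and the groups overlapped by a small margin (1.30 ± 0.57, adjusted p = 0.2221). Npr1, the receptor of the atrial peptide, had 1.56 to 7.64 CPM in muscle and 0.67 to 5.61 in epithelium (0.63 ± 1.00, adjusted p = 0.8913). None of the 5 membrane cyclases named Gucy2, enzymes of gut, retina and sensory cells, passed the threshold. Gucy2c, the gut receptor of guanylin, had 3, 65 and 0 counts in muscle and 12, 135 and 96 in epithelium, and the counts of Gucy2f were likewise highest in the libraries with many background counts.

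**Figure D2:**
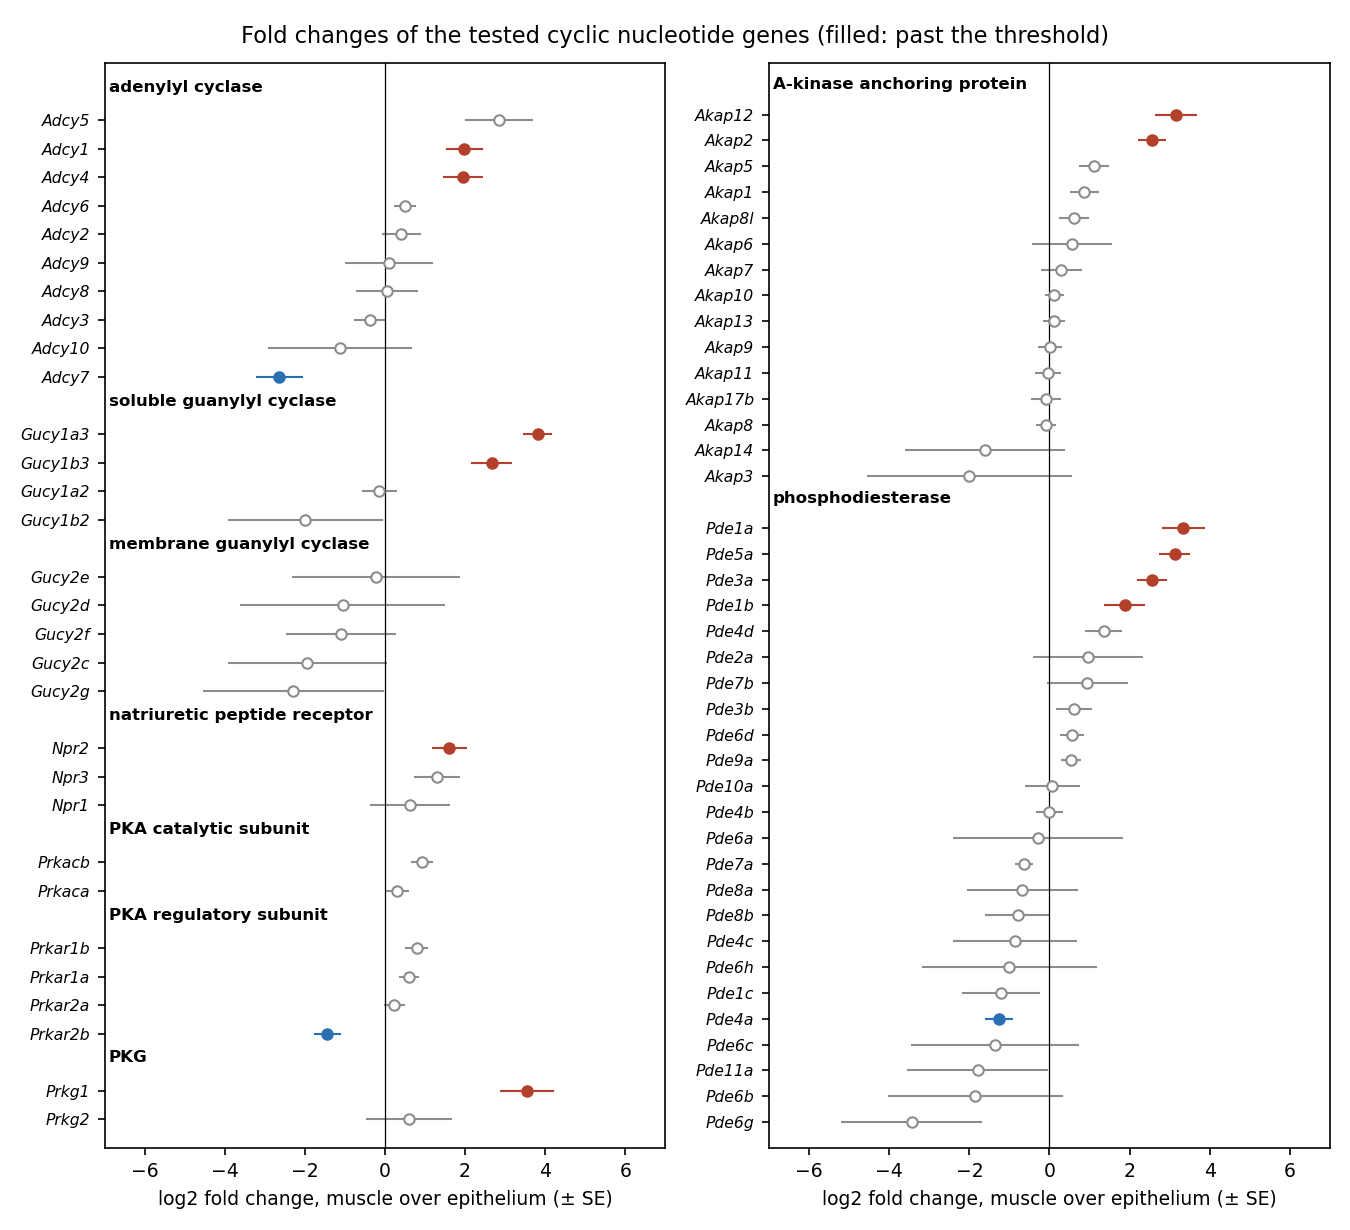
Log2 fold change of muscle over epithelium with its standard error for the 69 tested genes, by family. Filled points passed the threshold. The 12 filled points right of 0 lie in 6 of the 9 families, the 3 left of 0 are Adcy7, Prkar2b and Pde4a, and the widest bars belong to genes with few counts.

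Of the 10 adenylyl cyclases, 2 were higher in muscle (Adcy1 and Adcy4), 1 was higher in epithelium (Adcy7) and 7 did not pass, so that 3 of 10 were called against 10.7% of all tested genes. Adcy7, a form known from blood cells and stimulated through G proteins, had 1.25, 7.79 and 5.61 CPM in muscle and 39.8, 25.5 and 25.8 in epithelium. The lowest epithelial library was above the highest muscle library by more than 3 times. The fitted difference was 6.23-fold (log2 fold change -2.64 ± 0.58, adjusted p = 0.02041, edgeR). It narrowly missed the threshold without muscle replicate 3 (adjusted p = 0.05314), and missed it with the replicate number as a block (adjusted p = 0.07497). Adcy1, a form activated by calcium and calmodulin and best known in brain, had 47.4, 19.97 and 72.4 CPM in muscle against 7.73, 16.1 and 11.6 in epithelium (1.99 ± 0.47, adjusted p = 0.02703). Adcy4 had 16.4, 14.9 and 16.5 CPM in muscle, with little spread, against 1.86, 6.62 and 4.06 in epithelium (1.94 ± 0.50, adjusted p = 0.03905). Both lost the call without muscle replicate 1 or 3 or epithelium replicate 1 or 3, at an adjusted p of up to 0.09973 for Adcy1 and 0.1621 for Adcy4. In the 3 libraries with few background counts Adcy4 was at 2.96 ± 0.57. In epithelium replicate 2 Adcy1 and Adcy4 were under the receptor gene level, at 1.29 and 1.42 CPM per kilobase against 1.55.

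Adcy5 and Adcy6 form the calcium-inhibited pair that is prominent in heart and smooth muscle. Adcy5 had 12.8, 11.9 and 25.7 CPM in muscle and 0.30, 4.61 and 2.18 in epithelium. The groups were well apart, but the log2 fold change of 2.85 ± 0.85 did not pass (adjusted p = 0.06957, edgeR). It passed without epithelium replicate 1 (adjusted p = 0.02592) or 2 (0.02286) in edgeR. In the 3 libraries with few background counts, of which 1 is epithelial, the value was 5.82 ± 0.82. It came from 338 and 1015 counts in muscle and 16 in epithelium. Adcy6 was present in both tissues, with 39.7 to 60.5 CPM in muscle and 27.7 to 45.4 in epithelium (0.50 ± 0.27, adjusted p = 0.3637). Adcy3 (-0.38 ± 0.39, adjusted p = 0.7747), of which 22.1% of exon bases overlap Cenpo on the other strand, and Adcy2 (0.41 ± 0.48, adjusted p = 0.8233) also had overlapping groups.

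As a share of the summed level per kilobase of all 10 adenylyl cyclases, Adcy6 made up 29.8%, 31.2% and 30.6% in the muscle libraries and 36.9%, 19.5% and 28.2% in epithelium. It was thus the form of highest level in every library. Adcy1, Adcy4 and Adcy5 together gave 46.2%, 27.4% and 44.2% in muscle and 5.82%, 15.999% and 12.3% in epithelium, without overlap. In epithelium replicate 2 all 3 were under the receptor gene level (1.29, 1.42 and 0.64 CPM per kilobase against 1.55). Adcy5 was under it in epithelium replicate 3 too (0.30 against 0.64). Adcy7 gave 0.95%, 4.91% and 2.86% in muscle and 32.5%, 18.1% and 22.4% in epithelium. These shares carry no test, since 3 against 3 cannot reach a p under 0.1 in an exact permutation test. Those 3 genes were grouped after their values were seen.

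**Figure D3:**
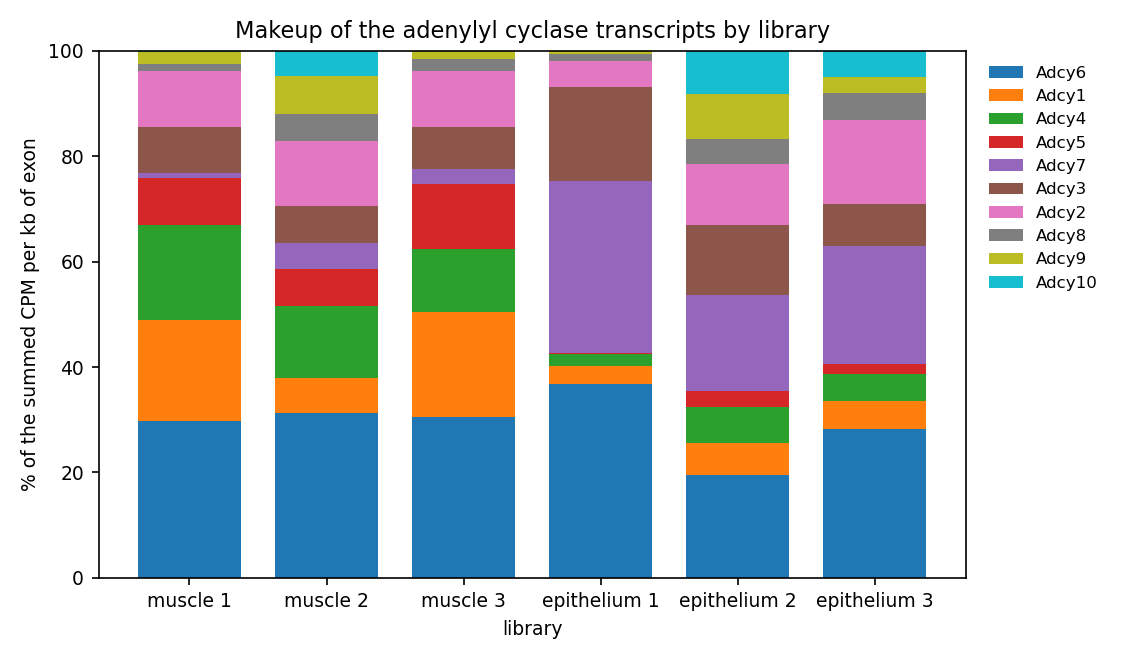
Share of each adenylyl cyclase in the summed CPM per kilobase of exon, as stacked bars for each of the 6 libraries. Adcy6 takes 19.5% to 36.9% of every bar, the Adcy1, Adcy4 and Adcy5 blocks are larger in muscle, and the Adcy7 block is larger in epithelium, where it takes 18.1% to 32.5%.

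Of the 24 phosphodiesterases, 4 were higher in muscle (Pde1a, Pde5a, Pde3a and Pde1b), 1 was higher in epithelium (Pde4a) and 19 did not pass, which is 20.8% called against 10.7% of all tested genes. The calls of Pde1b and Pde4a each held in 1 of the 6 fits that left out a library. Pde1a, a calcium- and calmodulin-stimulated enzyme that degrades both nucleotides, had 51.4, 79.8 and 62.7 CPM in muscle and 2.42, 11.6 and 5.37 in epithelium. Here muscle replicate 2 was the highest of its group, unlike for Pde5a. The difference was 10.2-fold (log2 fold change 3.35 ± 0.53, adjusted p = 0.004294, edgeR). Pde1b, of the same subfamily, had 26.3, 6.84 and 23.8 CPM in muscle and 5.95, 4.61 and 4.88 in epithelium. The muscle value of replicate 2 was close to the epithelial range, and the difference of 1.88 ± 0.50 (adjusted p = 0.04625) passed in only 1 of the 6 fits that left out a library, the one without muscle replicate 2, and reached an adjusted p of 0.209. Pde1c, the third member, was low in muscle replicates 1 and 3 (3.65 and 0.53 CPM) and had 7.06 to 25.5 CPM in epithelium, with 15.2 CPM in muscle replicate 2. Its groups overlapped (-1.21 ± 0.97, adjusted p = 0.6422). In replicates 2 and 3 of both tissues Pde1c was under the receptor gene level. Its values were 1.27 and 0.61 CPM per kilobase against 1.55 and 0.64 in epithelium, and 0.76 and 0.026 against 0.86 and 0.033 in muscle.

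Pde3a, at chr6:141249269-141507448, encodes a cyclic AMP phosphodiesterase that cyclic GMP inhibits, known from heart and vascular muscle. It had 35.7, 30.1 and 44.7 CPM in muscle and 4.67, 9.69 and 4.47 in epithelium, a tight pattern without overlap. The difference was 5.92-fold (log2 fold change 2.57 ± 0.37, adjusted p = 0.002728, edgeR). Its epithelial level in replicates 2 and 3 was again under the receptor gene level of those libraries. Its relative Pde3b, known from fat and liver and added here with its values known, had overlapping groups, with 8.04 to 14.6 CPM in muscle and 5.26 to 10.02 in epithelium (0.61 ± 0.46, adjusted p = 0.5981). Per kilobase of exon, Pde3a exceeded Pde3b 2.55-, 2.68- and 2.20-fold in the muscle libraries, and in epithelium the ratio was 0.55, 0.69 and 0.61. Both genes were under the receptor gene level in epithelium replicates 2 and 3. In epithelium replicate 1 that level was 0, so any count lies above it, and the ratio there came from 251 counts of Pde3a and 328 of Pde3b.

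The PDE4 enzymes degrade cyclic AMP and are targets of drugs for inflamed airways. Pde4a had 11.8, 14.2 and 11.1 CPM in muscle and 32.9, 16.7 and 39.1 in epithelium. Epithelium replicate 2 came close to muscle, and the call (log2 fold change -1.26 ± 0.34, adjusted p = 0.0463, edgeR) passed without that library (adjusted p = 0.007286) and was lost without each of the other 5 in turn, at up to 0.1723. Pde4d pointed the other way, with 29.5, 22.0 and 30.6 CPM in muscle and 4.80, 18.5 and 9.05 in epithelium. Its groups did not overlap, yet it did not pass (1.35 ± 0.46, adjusted p = 0.1065), except without epithelium replicate 2 among the fits that left out a library (adjusted p = 0.007424). Pde4b was at about the same level in both, 18.98 to 35.2 CPM in muscle and 19.96 to 33.3 in epithelium (-0.01 ± 0.33, adjusted p = 0.9971). Pde7a, also specific for cyclic AMP, was lower in every muscle library (21.4 to 25.0 CPM) than in every epithelial one (33.3 to 39.6), but the difference did not pass (-0.63 ± 0.22, adjusted p = 0.1172). It passed toward epithelium with library size only, in DESeq2 and with the header date as a term, and in none of the 6 fits that left out a library.

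Pde9a, specific for cyclic GMP, had 52.5, 31.5 and 43.0 CPM in muscle and 29.9, 27.8 and 29.4 in epithelium. The ranges did not overlap, by a small margin, and the difference did not pass (0.54 ± 0.25, adjusted p = 0.2558, edgeR). Pde6d carries a phosphodiesterase name but encodes a carrier of lipid-modified proteins to cilia. It had the highest level per kilobase of the 24, with 42.2 ± 8.34 (SD, n = 3) CPM per kilobase in muscle against 28.6 ± 9.11, and did not pass either (0.56 ± 0.30, adjusted p = 0.3578).

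Of the 6 PKA subunit genes, 1 passed in the fit to all libraries, against 10.7% of all tested genes. It was Prkar2b, the RII-beta regulatory subunit of neurons, fat and endocrine cells. Prkar2b, at chr12:31958476-32061296, had 8.82, 16.3 and 17.7 CPM in muscle and 40.3, 47.3 and 28.7 in epithelium. It was 2.71-fold higher in epithelium without overlap (log2 fold change -1.44 ± 0.33, adjusted p = 0.02408, edgeR). The call was lost without muscle replicate 1 (adjusted p = 0.06582) or epithelium replicate 2 (0.06038). It was also lost within the later header date and without the 3 libraries with many background counts. Per kilobase of exon, Prkar2b was at 0.53, 0.99 and 0.79 of the level of Prkar2a in muscle and at 2.08, 3.42 and 2.04 times it in epithelium. Prkar2a itself had 28.7 to 39.3 CPM in muscle and 24.1 to 33.8 in epithelium (0.23 ± 0.25, adjusted p = 0.7961).

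Prkar1a, the RI-alpha subunit of most tissues, had the highest level per kilobase of all 70 genes in both groups. It had 1004, 689 and 969 CPM in muscle and 645, 514 and 591 in epithelium, so the groups did not overlap, but the 1.52-fold difference did not pass (0.61 ± 0.25, adjusted p = 0.1952, edgeR). It made up 87.6% to 90.3% of the summed level per kilobase of the 4 regulatory subunits in muscle and 83.3% to 85.8% in epithelium. Prkar1b had 44.5 to 78.8 CPM in muscle and 27.3 to 42.0 in epithelium (0.79 ± 0.29, adjusted p = 0.1397), and passed without muscle replicate 2 (adjusted p = 0.04026). The catalytic subunit gene Prkacb had 188, 118 and 188 CPM in muscle and 105, 74.5 and 79.4 in epithelium. Each muscle library was higher, and the log2 fold change of 0.93 ± 0.27 (adjusted p = 0.06612) was just outside the threshold, which it passed without muscle replicate 2 (adjusted p = 0.0161). Prkaca had 16.99 to 31.1 CPM in muscle and 16.7 to 21.2 in epithelium, with overlap (0.31 ± 0.29, adjusted p = 0.7298). With the header date as a term in edgeR, Prkacb (0.90, adjusted p = 0.01183), Prkar1a (0.59, adjusted p = 0.01485) and Prkar1b (0.78, adjusted p = 0.01551) passed toward muscle at nearly the same sizes, and Prkacb and Prkar1a also passed in DESeq2.

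Among 15 tested A-kinase anchoring proteins, 2 passed toward muscle and none toward epithelium, 13.3% against 10.7% of all tested genes. 4 had an unadjusted p under 0.05, and with DESeq2 the same pair passed. Akap12, also called gravin, is a scaffold of PKA, protein kinase C and the beta-adrenergic receptor, at chr10:4266380-4359470. It had 1074, 834 and 1206 CPM in muscle and 66.6, 220.6 and 59.5 in epithelium. Epithelium replicate 2 was high within its group, yet the groups were far apart, with an 8.99-fold difference (log2 fold change 3.17 ± 0.52, adjusted p = 0.005252, edgeR). In muscle its level per kilobase, 161 ± 29.2 (SD, n = 3), was second to Prkar1a among the members, which had 205 ± 40.1 and was above Akap12 in each of the 3 muscle libraries.

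Akap2 had 403, 225 and 528 CPM in muscle and 80.5, 56.7 and 58.6 in epithelium, without overlap, and was 5.91-fold higher in muscle (2.56 ± 0.35, adjusted p = 0.002204, edgeR). RefSeq now joins Akap2 to the neighbouring Palm2 as Pakap, and 84.4% of the exon bases of Akap2 are shared with the joined gene, so its reads may include those of joined transcripts. Of the others, Akap8 (-0.09 ± 0.26, adjusted p = 0.9416), which binds chromatin, and Akap13 (0.12 ± 0.27, adjusted p = 0.9277) had overlapping groups and were of high level in both tissues. Akap8l (0.62 ± 0.37, adjusted p = 0.4313) and the Golgi and centrosome scaffold Akap9 (0.01 ± 0.29, adjusted p = 0.9918) did not pass either.

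Some members had most of their counts in the libraries rich in receptor counts. 16 of the 70 were under 1 CPM in muscle replicates 1 and 3 and epithelium replicate 1, a cut chosen after the values were seen. Among them were Adcy10, Gucy2c, Pde11a, Pde4c, Akap14, 5 PDE6 genes of photoreceptors and the testis genes Akap3 and Akap4. The 16 summed to 2.20, 2.10 and 1.64 CPM in those libraries, where the cut itself keeps the sums low. In muscle replicate 2 and epithelium replicates 2 and 3 they summed to 48.7, 88.6 and 40.6 CPM. The same libraries held the most olfactory and vomeronasal receptor counts, 779, 1439 and 603 CPM in sum. Of all 70 members, 17, 29 and 19 lay at or under the receptor gene level, the 95th percentile of CPM per kilobase, in these 3 libraries. In muscle replicates 1 and 3 and epithelium replicate 1 it was 15, 10 and 8 members, at lower levels of 0.063, 0.033 and 0. Above the level in all 6 libraries were 34 members. Of the 16 genes, Akap3, Akap4, Gucy2d and Gucy2g were at or under it in all 6 libraries, while Pde6g and Gucy1b2 were at or under it in 1 library each. Without the 3 libraries rich in receptor counts, epithelium was left with replicate 1 alone. That fit assumes that this library varies like the muscle ones, so no count of passing genes from it alone is given. The 15 genes past the threshold in all libraries kept their direction in it.

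**Figure D4:**
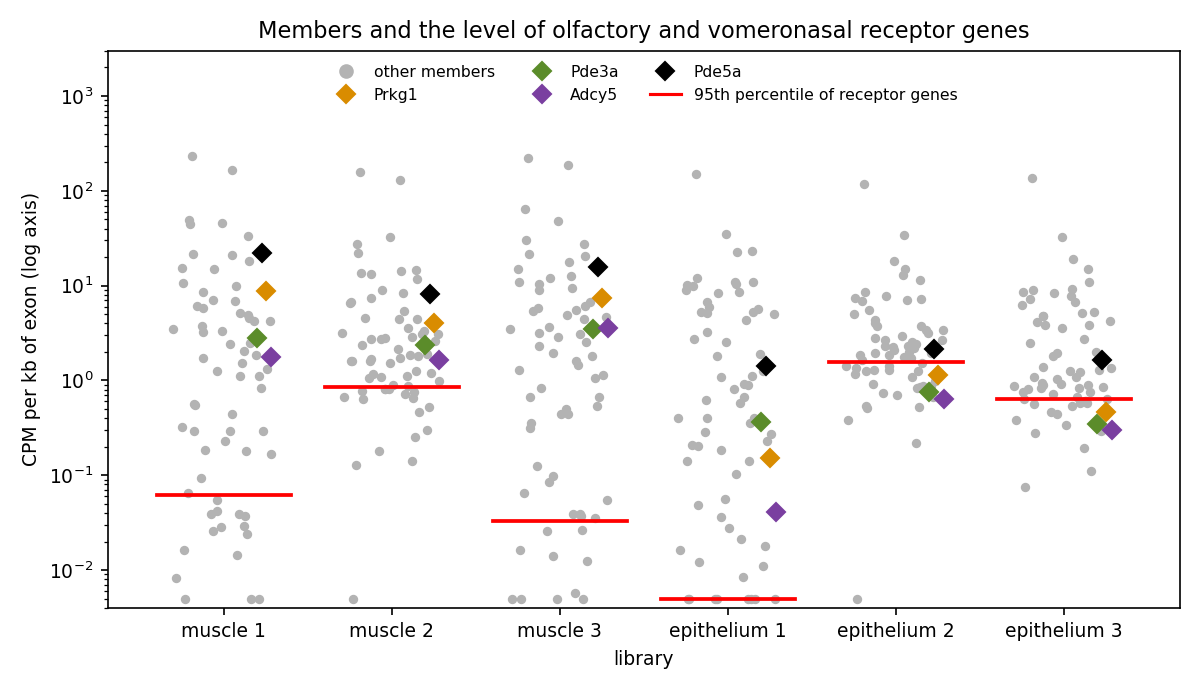
CPM per kilobase of exon on a log axis for the 70 genes in each library, with values below the axis, zeros included, drawn near its lower edge. The red line is the 95th percentile of receptor genes, which is 0 in epithelium replicate 1, and in epithelium replicates 2 and 3 it lies above Prkg1, Pde3a and Adcy5 but below Pde5a.

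Other genes of cyclic nucleotide signalling, 60 textbook genes outside the symbol rule, were read in the same fit. Of 56 tested, 7 passed toward muscle and 1 toward epithelium, 14.3% against the 10.7% of all tested genes, with a median log2 fold change of 0.02. The count toward muscle was 3 without muscle replicate 1 or 3 and 2 without epithelium replicate 3, and that toward epithelium was 2 without epithelium replicate 1. Of the substrates and partners of PKA and PKG, 4 of 8 passed, all toward muscle. Hspb6, a small heat shock protein phosphorylated in relaxing muscle, had 121, 98.7 and 217 CPM in muscle and 12.6, 19.2 and 11.3 in epithelium (log2 fold change 3.35 ± 0.38, adjusted p = 0.0009723, edgeR). Mrvi1, now Irag1, the PKG substrate that restrains calcium release, had 185, 29.4 and 139 CPM in muscle and 0.28, 9.29 and 3.83 in epithelium. Its groups did not overlap (4.78 ± 1.11, adjusted p = 0.02593), but the call was lost without muscle replicate 1 or 3 or epithelium replicate 3, at up to 0.15, and in the 3 libraries with few background counts the value was 8.98 ± 0.48. Vasp (1.14 ± 0.27, adjusted p = 0.02589), an actin regulator phosphorylated by both kinases, lost it without the same 3 libraries or epithelium replicate 1, at up to 0.1073, and the myosin phosphatase gene Ppp1r12a (0.97 ± 0.26, adjusted p = 0.04679), which the naming rule left out and which was added with its value known, completed the 4.

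Pkia, an inhibitor peptide of PKA, had 153, 144 and 151 CPM in muscle and 33.9, 29.5 and 40.9 in epithelium. Its spread within each tissue was small, and it was higher in muscle (log2 fold change 2.10 ± 0.23, adjusted p = 0.0009033, edgeR). The CREB coactivator Crtc3 (1.38 ± 0.28, adjusted p = 0.01524) and the factor Creb5 (1.73 ± 0.40, adjusted p = 0.02474) were also higher in muscle. Crtc3 lost the call without muscle replicate 3 or epithelium replicate 3, at up to 0.0859, and Creb5 without muscle replicate 1 or 2 or epithelium replicate 3, at up to 0.1299. Toward epithelium the gene past the threshold was Ezr, the membrane-cytoskeleton linker that also anchors PKA. Ezr had 17.6, 11.4 and 11.4 CPM in muscle and 304, 264 and 330 in epithelium (-4.47 ± 0.30, adjusted p = 9.612e-05, edgeR). None of the 9 tested ligand and nitric oxide synthase genes and none of the 14 tested effectors other than kinases passed.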

How the data were processed

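The values are counts of reads per gene as the authors deposited them, 1 column per library (6 columns). Per the submitters' processing notes, Trim Galore, Bowtie2, Cufflinks and DESeq were used with the build mm10. The counting program, its annotation and its use of strand are not given in the sources used here, so reads of overlapping and antisense genes cannot be separated. Between 73.8% and 79.6% of the deposited counts from 1 to 19 were even, against 49.4% to 50.6% of counts of 100 and more, so low counts may hold fewer fragments than they show.

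Genes were kept by edgeR's filterByExpr, scaled by TMM and tested with edgeR 4.0.16 (quasi-likelihood, two-sided, R 4.3.3) over all 19375 genes, with Benjamini-Hochberg adjustment and a threshold of 0.05. The smallest two-sided p of an exact permutation test of 3 against 3 would be 0.1. CPM use TMM-scaled totals. Levels per kilobase use the exon union of GENCODE vM21 (GRCm38), and compare genes only within that scale. DESeq2 1.42.0 and limma-voom 3.58.1, other filters and scalings, each library left out, the replicate number as a block and the header date were alternatives. The scripts were tested on simulated data.

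The genes, the related list and the markers were chosen with earlier results of these data known. Named are all members past the threshold, up to 4 others of highest CPM in each family, 17 members with textbook roles in muscle or airway epithelium, and up to 6 related genes past the threshold in each direction. Promoter sequences are from RefSeq (GRCm38.p6), where Akap2, Gucy1a3 and Gucy1b3 are listed as Pakap, Gucy1a1 and Gucy1b1.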

Additional observations from a re-analysis of the deposited data

How the results depend on the processing

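Of the 15 members past the threshold, 6 (Gucy1a3, Akap12, Akap2, Pde1a, Pde3a and Pde5a) kept the call in all 16 alternatives run for single genes. These 16 include the fit in which epithelium was left with replicate 1 alone. The count of members higher in muscle, 12, was 7 at an adjusted p under 0.01 in edgeR, 19 within the later header date and 6 to 16 when 1 library was left out. The count higher in epithelium, 3, was 0 at an adjusted p under 0.01 (24 members in either direction had an unadjusted p under 0.05), 1 with the replicate block and 1 to 2 when 1 library was left out. Related genes higher in muscle, 7, became 11 with limma-voom, 2 at an adjusted p under 0.01, 11 within the later date and 2 to 9 with 1 library left out. Those higher in epithelium, 1, became 2 with DESeq2, 2 with the header date as a term and 1 to 2 with 1 library left out. The 2 alternatives on background counts were chosen after seeing the data.

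Deviations of same-numbered libraries from their group means had correlations of 0.59, 0.73 and -0.57 over 19375 genes. Over the 3810 genes of highest level they were 0.19, 0.16 and -0.21. Both libraries of replicate 1 had few background counts, both of replicate 2 had many, and those of replicate 3 differed. The correlations therefore cannot decide pairing, and the main fit did not use the numbers as pairing. With the replicate block, 11 members passed, 8 of them shared, and Prkg1 was at 3.88 (adjusted p = 0.05551, edgeR). Prkacb, Prkar1a and Prkar1b passed toward muscle only with the block or in other alternatives (adjusted p = 0.02136, 0.03398 and 0.03532 with the block).

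The following log2 fold changes turned sign, none of them past the threshold in the fit to all libraries. With library size only, Akap13 was at -0.17, Akap9 at -0.24 and Prkar2a at -0.020. With DESeq2, Akap13 was at -0.0078 and Akap9 at -0.10, and with limma-voom Gucy1b2 was at 1.34 and Pde4b at 0.0013. Pde4b was at 0.020 with no filter, and Akap9 at -0.018 with the stricter filter and -0.13 within the later date. Without the 3 libraries with most background counts, Adcy6 was at -0.042, Akap13 at -0.091, Akap9 at -0.36, Gucy1b2 at 6.52, Prkaca at -0.0026 and Prkar2a at -0.17. With the background covariate, Akap9 was at -0.083, Gucy1b2 at 0.57 and Pde4b at 0.077. With 1 library left out, the ranges that crossed 0 were -0.057 to 0.32 for Akap13, -0.29 to 0.075 for Akap8, -0.28 to 0.24 for Akap9, -0.45 to 0.057 for Gucy1a2, -0.34 to 0.24 for Pde4b and -0.36 to 1.18 for Prkg2. The cause of these changes was not tested. Counts of some members did not follow depth: Gucy2c, with a standard error of 1.99 on the log2 scale, had 12 counts in the deepest library and 135 in the shallowest.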
